A study of Mus musculus with 80 samples.

Results

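Serotonin from the raphe nuclei and noradrenaline from the locus coeruleus act on neurons through families of G protein-coupled receptors. Receptors that couple to Gs raise cyclic AMP, those that couple to Gi/o lower it, and those that couple to Gq drive phospholipase C. Medium spiny neurons (MSN), the projection neurons of the striatum, receive dense serotonergic input and much sparser noradrenergic input, and cyclic AMP is the second messenger on which dopamine also acts in them. The genes described here were the serotonin receptor genes Htr1b, Htr2a, Htr2c, Htr4, Htr6 and Htr7 and the adrenergic receptor genes Adra2a, Adra2c and Adrb1. They were chosen by name, and 8 of the 9 were matched by symbol among the 25160 listed genes. Adra2a was not analysed here.

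Each sample was 1 cell, sorted from the dorsomedial striatum of adult female mice that were heterozygous for both reporters, Drd1a-TdTomato and Drd2-EGFP, so the groups shared genotype and handling and differed in the reporter that the cell was sorted for. Both reporters are BAC transgenes, which report the activity of an inserted copy of the receptor locus. The mice had been injected with India ink and a Hoechst dye to mark the region, and no untreated animals are among the samples. There were 40 Drd1a-TdTomato cells (D1 MSN) and 40 Drd2-EGFP cells, and 2 of the latter were cholinergic interneurons with Chat above 100 TPM, which left 38 D2 MSN. TPM is a gene's abundance per transcript length in a cell, scaled to a fixed total. The study's methods give several independent experiments and animals, but the labels, which name plates and wells, tie no cell to an animal. The groups were therefore treated as 1 sample each without a test of their difference, and spread is given as the values of the large plates FACS051_5 and FACS086_4.

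A median of 5722 genes was above 1 TPM in D1 MSN and of 4927.5 in D2 MSN. These medians were 5109 and 5923 on FACS051_5 but 5730 and 4617 on FACS086_4, so that the order turned between plates. All 8 listed markers of MSN, such as Ppp1r1b (DARPP-32), were past a log2 fold of 1 in neither direction. Of the cells labelled Drd1a-TdTomato, that in well B02 of FACS086_4 had 648 genes above 1 TPM, Drd1 at 0 and an MSN marker sum of only 4.09 TPM, while the one in well D04 of FACS051_5 showed the astrocyte gene Gja1 at 989 TPM beside Drd1 at 2.03 TPM. Both go against the name D1 MSN and were kept there by their label. The 5 listed astrocyte markers summed to 2845 TPM in well D04, to at most 17.6 TPM in the other D1 MSN and to at most 45.5 TPM in D2 MSN. In both of these cells, and in the Drd2-EGFP cell in well A12 of FACS086_9 with 1215 genes, each of the 8 receptor genes was at most 1 TPM. Of the 6 markers of serotonin and noradrenaline neurons, only Slc6a2 was listed, with sums up to 1.33 TPM in MSN. Of the 6 markers of cortical excitatory neurons 5 were listed, with sums of 0 to 147 TPM in D1 MSN and 0 to 56.9 TPM in D2 MSN, and of 8 markers of other interneurons 4 were listed, with sums up to 325 and 97.2 TPM. All 5 markers of cholinergic interneurons were listed, with sums up to 15.7 and 10.8 TPM. Marker genes found in at least 10% of a subtype's cells and past a log2 fold of 1 were Slc1a3 (3.56), Cck (2.16), Tbr1 (1.53) and Esam (3.31), all toward D1 MSN, and without 1 D1 MSN each Slc1a3 came to 0.00 (0.00426) and Tbr1 to 0.10. The markers of microglia, oligodendrocytes and endothelial cells reached sums of 271, 260.0 and 318 TPM in D1 MSN and 159.7, 84.8 and 277 TPM in D2 MSN. Among the endothelial markers, Pecam1 was above 1 TPM in all 40 D1 MSN and all 38 D2 MSN, with medians of 30.7 and 30.8 TPM. Without the 3 cells in wells D04, B02 and A12 the log2 fold of Adra2c, D1 over D2 MSN, was 1.72 and that of Htr2c -1.10, beside 1.68 and -1.13 with them. Adra2c was then above 1 TPM in 39.5% of D1 MSN. The part of the other marker genes in the results was not tested.

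Across the MSN, Htr1b and Htr2c were the receptor genes found in the most cells, Adra2c was found in as many D1 MSN as Htr2c, and Htr2a, Htr4, Htr6 and Htr7 were found in few cells or none. Above 1 TPM were Htr1b in 36 of 78 MSN (46.2%), Htr2c in 34 (43.6%), Adra2c in 18 (23.1%) and Adrb1 in 12 (15.4%). Htr2a was above 1 TPM in 4 MSN, Htr6 in 3, Htr4 in 1 and Htr7 in 0. Ranges given beside a subtype's share are exact 95% (Clopper-Pearson) intervals and cover counting error over cells only. The depth of reads behind a TPM value is unknown, so a gene listed at 0 in a cell may have been present and missed.

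**Figure D1:**
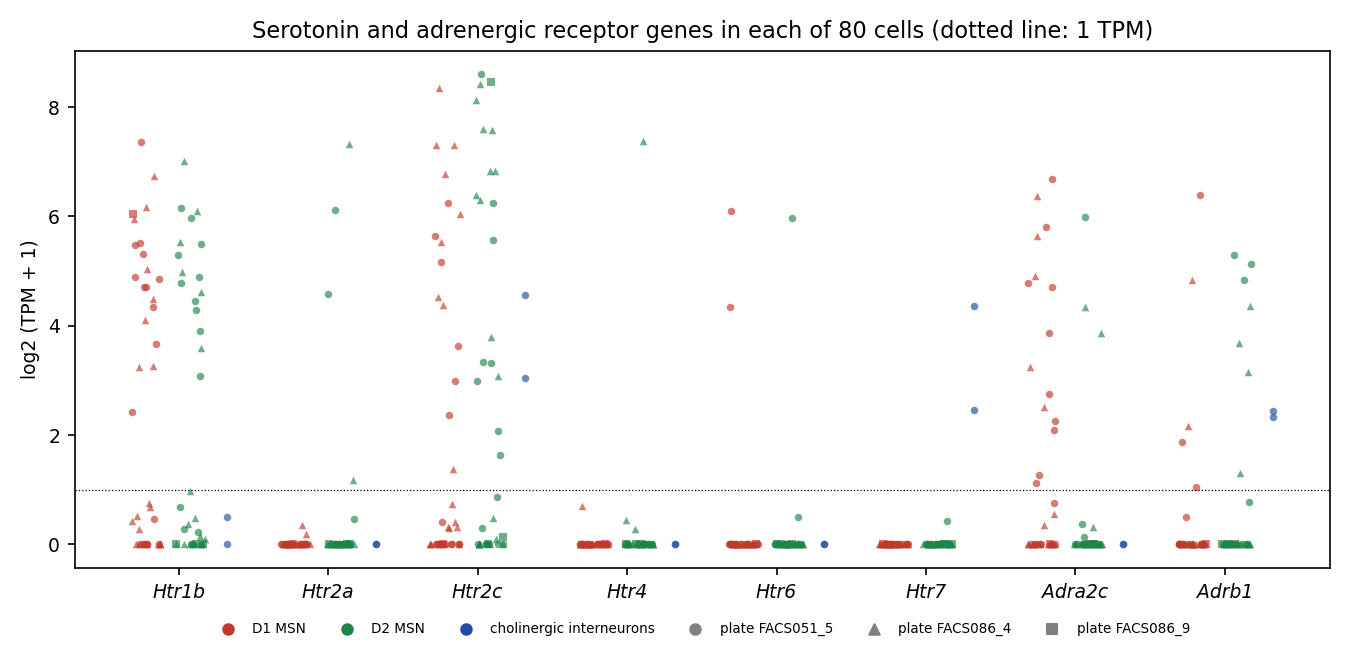
Level of each receptor gene in each cell, as log2 of TPM plus 1, by gene and cell group, with 1 point a cell and the plate as the point's shape. Htr1b, Htr2c and, in D1 MSN, Adra2c spread from 0 to above 80 TPM, whereas Htr7 is above 1 TPM only in the 2 cholinergic interneurons. Adrb1 in D1 MSN, and Htr2a and Htr4 in D2 MSN, pass 80 TPM in 1 cell each.

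Of the receptors that couple to Gi/o, Htr1b encodes the serotonin 1B receptor, which is known as a presynaptic receptor that dampens transmitter release. The gene lies on chromosome 9 of GRCm38 from 81628291 to 81633828. In the 40 D1 MSN, Htr1b ranged from 0 to 164 TPM with a median of 2.53 TPM, and in the 38 D2 MSN from 0 to 128 TPM with a median of 0.347 TPM. The groups overlapped from 0 to 128 TPM. Above 1 TPM were 20 of 40 D1 MSN (50.0%, interval 33.8% to 66.2%), as were 16 of 38 D2 MSN (42.1%, interval 26.3% to 59.2%). Among such cells the median was 28.3 TPM for D1 MSN, against 29.7 TPM for D2 MSN. The means were 20.7 and 16.8 TPM, a log2 fold of D1 over D2 MSN of 0.28 on the scale of mean TPM plus 1, and the large plates gave 0.21 on FACS051_5 and -0.05 on FACS086_4. Between plates the share differed more than between subtypes, with 21 of 34 MSN on FACS051_5 and 14 of 40 on FACS086_4 above 1 TPM.

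An exon of Htr1b overlaps exons of D430036J16Rik, a gene on the opposite strand, in the GENCODE M21 annotation. D430036J16Rik was above 1 TPM in 14 MSN, and 12 of these were among the cells with Htr1b above 1 TPM. Whether reads were counted by strand is not given in the sources used here, so the reads of these genes cannot be told apart where they overlap.

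Adra2c encodes the alpha-2C adrenoceptor, the other Gi/o-coupled receptor of the group, and is a gene of 1 exon on chromosome 5 from 35278319 to 35281763. Of the 8 genes, Adra2c had the widest gap between the subtypes in the share of cells. It ranged from 0 to 101 TPM in D1 MSN and from 0 to 62.6 TPM in D2 MSN, with a median of 0 in each. Above 1 TPM were 15 of 40 D1 MSN (37.5%, interval 22.7% to 54.2%), as were 3 of 38 D2 MSN (7.89%, interval 1.66% to 21.4%). These 3 D2 MSN stood at 62.6, 19.4 and 13.5 TPM, so that high values were rare but present in D2 MSN. Among cells above 1 TPM the median was 13.6 TPM for D1 MSN and 19.4 TPM for D2 MSN. With a limit of 5 TPM the share of D1 MSN was 25%, and with 10 TPM it was 20%. The share of D2 MSN was 7.89% at both of these limits, so the gap narrowed at higher limits. The means were 10.3 and 2.53 TPM, a log2 fold of 1.68, with 1.52 on FACS051_5 and 1.76 on FACS086_4.

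The share of D1 MSN with Adra2c was 10 of 18 cells on FACS051_5 and 5 of 21 on FACS086_4, against 1 of 16 and 2 of 19 D2 MSN. The D2 mean rested on the cell in well C03 of FACS051_5, and without it the log2 fold was 2.57. Among cells with 4000 or more but fewer than 6000 genes above 1 TPM, 7 of 15 D1 MSN and 0 of 14 D2 MSN had Adra2c. In cells with at least 6000 genes the counts were 8 of 18 and 2 of 12, and in cells with fewer than 4000 genes 0 of 7 and 1 of 12. The 3 D2 MSN with Adra2c carried the D2 markers, with Penk at 30976, 11728 and 5408 TPM, Adora2a at 164, 141 and 73.6 TPM, and Drd1 at most 0.792 TPM.

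Within D1 MSN, prodynorphin (Pdyn) was above 1 TPM in 10 of the 15 cells with Adra2c and in 12 of the other 25. The median of Pdyn was 191 TPM in the cells with Adra2c and 0.794 TPM in the others, and that of Tac1, the substance P precursor, 1718 and 578 TPM. Cells with Htr2c gave the same counts for Pdyn, with medians of 96.2 and 0.967 TPM, and for Htr1b they were 12 of 20 and 10 of 20, with 98.6 and 2.90 TPM, whereas for Adrb1 the medians were 0 in the cells with it and 37.8 TPM in the others. The cells without each receptor included well D04 of FACS051_5 and well B02 of FACS086_4, which go against the name D1 MSN. Both had Pdyn at 0, and Tac1 was at 1.38 and 0.871 TPM. With 12 of 25 cells above 1 TPM, the median of the others for Adra2c and Htr2c fell just under that limit. The part of these cells in the medians was not tested. By plate, Pdyn was found in 6 of 10 cells with Adra2c and 2 of 8 others on FACS051_5, and in 4 of 5 and 9 of 16 on FACS086_4. Cells with Adra2c also had more genes above 1 TPM, with a median of 6143 against 5504, and the part of that in the difference was not tested.

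**Figure D2:**
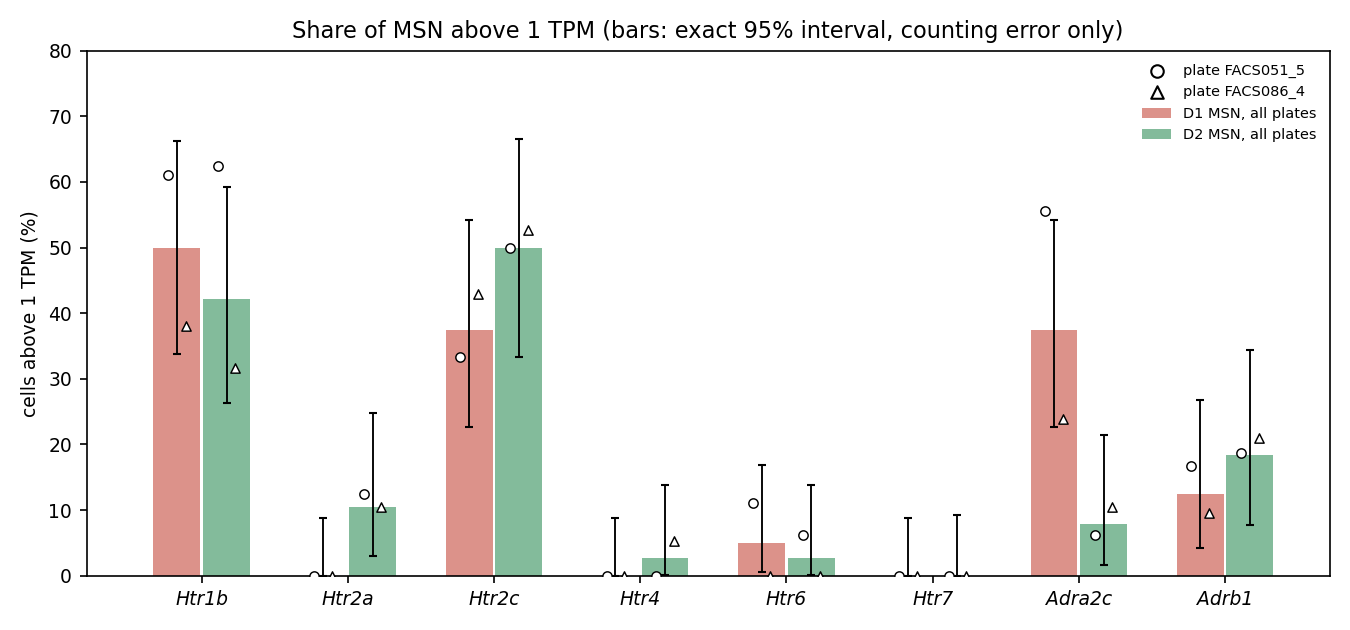
Percentage of D1 MSN (40 cells) and D2 MSN (38 cells) above 1 TPM for each receptor gene, with the exact 95% interval as bars and the large plates as open symbols. The share for Adra2c is 37.5% in D1 MSN and 7.89% in D2 MSN, while for Htr1b the plates lie farther apart than the subtypes.

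Of the receptors that couple to Gq, Htr2c encodes the serotonin 2C receptor, whose RNA is known to be edited in the coding region. It lies on chromosome X from 146962513 to 147197277. Among the 8 genes, Htr2c had the highest mean in both subtypes. It ranged from 0 to 324 TPM in D1 MSN with a median of 0.234 TPM, and from 0 to 387 TPM in D2 MSN with a median of 1.46 TPM. The groups overlapped from 0 to 324 TPM. Above 1 TPM were 15 of 40 D1 MSN (37.5%, interval 22.7% to 54.2%), as were 19 of 38 D2 MSN (50.0%, interval 33.4% to 66.6%), and the medians of these cells were 45.3 and 78.0 TPM. The means were 27.1 and 60.6 TPM, a log2 fold of -1.13.

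On the large plates the log2 fold of Htr2c was -1.65 on FACS051_5 and -0.77 on FACS086_4. Over all plates, leaving out 1 cell moved it between -1.59 and -0.91. On FACS051_5 the D2 MSN in well A12, at 387 TPM, held 71.7% of the D2 sum. Without that cell the D2 mean there was 10.2 TPM, against 10.1 TPM in D1 MSN. The higher mean in D2 MSN thus passed a log2 fold of 1 over all cells but not on FACS086_4, nor with every choice of a cell left out. The shares of cells had wide intervals that overlapped. By mean TPM, Htr2c ranked at place 1936 of the 25160 genes in D2 MSN and at place 4127 in D1 MSN. For scale, Drd2 averaged 50.0 TPM in D2 MSN and Drd1 195 TPM in D1 MSN, but in 26 of 38 and 38 of 40 cells above 1 TPM, so that Htr2c reached the mean of Drd2 from fewer cells.

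Htr2a, on chromosome 14 from 74640840 to 74709494, encodes the serotonin 2A receptor, a target of psychedelic drugs and of atypical antipsychotic drugs. It was at or below 0.277 TPM in all 40 D1 MSN, 0 of which were above 1 TPM (up to 8.81%). In D2 MSN it was above 1 TPM in 4 of 38 cells (10.5%, 2.94% to 24.8%), at 159.9, 68.8, 23.1 and 1.27 TPM. These cells came from both large plates, 2 from each. The means were 0.0104 and 6.67 TPM, a log2 fold of -2.92, and the cell in well A02 of FACS086_4 held 63.1% of the D2 sum. Without that cell the log2 fold was -1.80. On FACS051_5 Htr2a was listed at 0 in every D1 MSN, and no fold is given there.

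Of the receptors that couple to Gs, Htr4, Htr6 and Htr7 were rare in MSN. Htr4, on chromosome 18 from 62324204 to 62496577, encodes the serotonin 4 receptor and stood at 165 TPM in a single D2 MSN, in well B03 of FACS086_4. The other 77 MSN were at most 0.622 TPM. The log2 fold of -2.40 was that of this 1 cell, and was 0.00 (-5.34e-05) without it. The same cell had the highest Htr1b of the D2 MSN, at 128 TPM, as well as Htr2c at 278 TPM and Adra2c at 19.4 TPM. It had Penk at 11728 TPM and Adora2a at 141 TPM, with Drd2 listed at 0.

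Htr6, on chromosome 4 from 139061108 to 139075570, encodes the serotonin 6 receptor, which is known for its expression in striatum. It was at 67.9 and 19.2 TPM in 2 D1 MSN and at 61.6 TPM in 1 D2 MSN. All 3 cells were on FACS051_5, and on FACS086_4 the gene was listed at 0 in all 40 MSN. The means were 2.18 and 1.63 TPM, a log2 fold of 0.27 that ranged from -0.82 to 1.65 with single cells left out, so its direction rested on 1 cell.

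Htr7, on chromosome 19 from 35958734 to 36057507, encodes the serotonin 7 receptor. It was above 1 TPM in 0 of 78 MSN (interval 0% to 4.62%, which covers counting error over cells only), and no MSN exceeded 0.341 TPM. It was listed at 0 in all D1 MSN, so no fold is given. The cholinergic interneurons are local neurons that release acetylcholine. In them Htr7 stood at 19.6 TPM in well A08 and 4.52 TPM in well B02 of FACS051_5. Htr2c was at 7.27 and 22.7 TPM and Adrb1 at 4.04 and 4.42 TPM in the same cells, while Htr2a, Htr4, Htr6 and Adra2c were listed at 0 and Htr1b was at most 0.422 TPM. Both interneurons thus held the same 3 genes above 1 TPM. They also had 10912 and 10251 genes above 1 TPM, more than any MSN.

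Adrb1, on chromosome 19 from 56722199 to 56733113, encodes the beta-1 adrenoceptor, a Gs-coupled receptor. It ranged from 0 to 82.6 TPM in D1 MSN and from 0 to 38.1 TPM in D2 MSN, with a median of 0 in each. Above 1 TPM were 5 of 40 D1 MSN (12.5%, interval 4.19% to 26.8%), as were 7 of 38 D2 MSN (18.4%, interval 7.74% to 34.3%). The means were 2.94 and 3.72 TPM, a log2 fold of -0.26, with -0.33 on FACS051_5 and -0.35 on FACS086_4. The cell in well A09 of FACS051_5, at 82.6 TPM, held 70.2% of the D1 sum. With single cells left out the log2 fold ranged from -1.31, without that cell, to 0.05, so its direction rested on 1 cell.

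**Figure D3:**
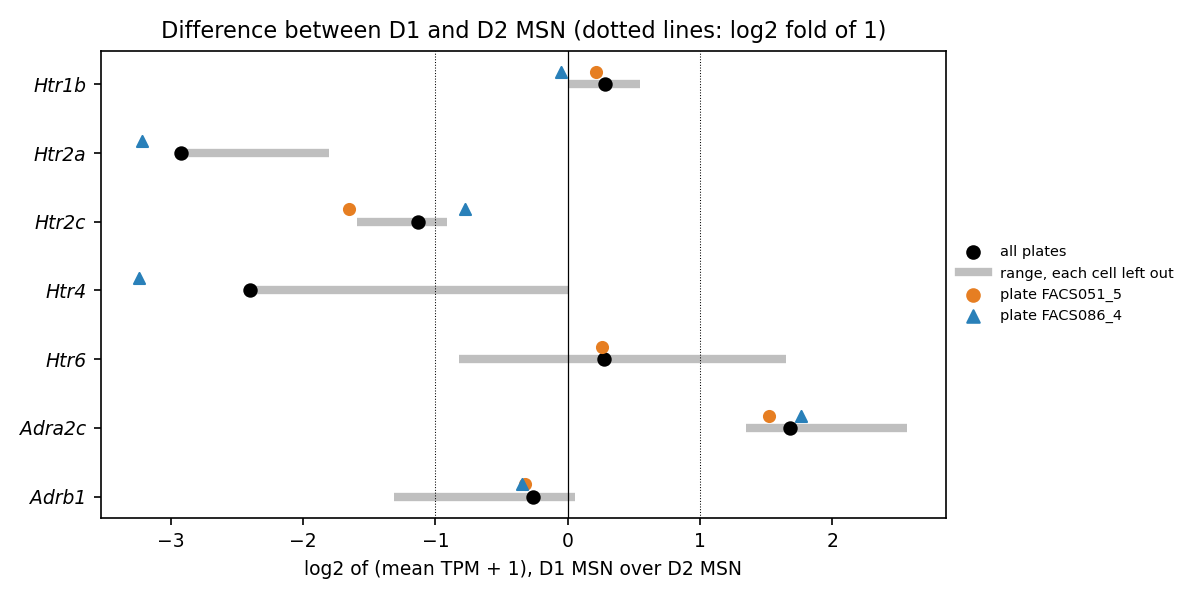
Log2 of mean TPM plus 1 in D1 MSN over that in D2 MSN for the 7 receptor genes with a value above 0 in both groups (black), with the range when each of the 78 MSN is left out in turn (grey) and the values within the large plates where both groups had one. Adra2c lies above 1 throughout, Htr2a below -1 throughout, and Htr4 moves from -2.40 to 0.00 without 1 cell.

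The comparison over all genes gives the scale for these folds. Among the 15671 genes that averaged 1 TPM or more in MSN, 21.1% had a log2 fold above 1 toward D1 MSN and 14.8% toward D2 MSN, so a fold of this size was common. Of the 7 receptor genes with such a mean, 1 (14.3%) was past it toward D1 MSN, Adra2c, and 3 (42.9%) toward D2 MSN, Htr2a, Htr2c and Htr4. The share toward D1 MSN, 1 gene, was near the background, and that toward D2 MSN rests on 3 genes, of which Htr4 was 1 cell. The median log2 fold was -0.26 over the 7 genes and 0.09 over the 15671.

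TPM is per length, which puts levels of different genes on a common scale. The study reports that its reads were biased toward the end of transcripts. It also found that the signal of the gene Chrm4 depended on whether the untranslated end was annotated. The part of such bias in the order of the genes below was not tested. In D1 MSN the order by mean TPM was Htr2c, Htr1b, Adra2c, Adrb1, Htr6, Htr4, Htr2a and Htr7. The means of Htr2c on the large plates were 10.1 and 43.0 TPM and those of Htr1b 24.1 and 15.6 TPM, FACS051_5 before FACS086_4, so these neighbours did not differ beyond the spread between plates. Adra2c, at 13.2 and 8.32 TPM, lay below Htr1b on both plates. Adrb1, at 4.82 and 1.47 TPM, and Htr6, at 4.84 and 0 TPM, did not differ beyond it, and nor did Htr6, Htr4 and Htr2a, with Htr4 and Htr2a at most 0.0296 TPM on either plate. In D2 MSN the order was Htr2c, Htr1b, Htr2a, Htr4, Adrb1, Adra2c, Htr6 and Htr7. There the mean of Htr2c, at 33.7 and 74.3 TPM, lay above that of Htr1b, at 20.7 and 16.2 TPM, on both plates. On FACS051_5 this rested on the cell in well A12, with Htr2c at 387 TPM. Without the highest cell of each gene the means there were 10.2 TPM for Htr2c and 17.4 TPM for Htr1b. The medians on that plate were 1.46 TPM for Htr2c and 16.2 TPM for Htr1b. Htr1b lay above Htr2a, at 5.77 and 8.49 TPM, and each gene from Htr2a down to Htr6 overlapped with the next over the plates.

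At least 1 of the 8 genes was above 1 TPM in 31 of 40 D1 MSN and 30 of 38 D2 MSN. D1 MSN averaged 1.43 of them per cell and D2 MSN 1.34, with a median of 1 and a maximum of 4 in each. In D1 MSN, 9 cells had 0 of the genes, 13 had 1, 12 had 2, 4 had 3 and 2 had 4. In D2 MSN the counts were 8, 15, 10, 4 and 1. The subtypes were thus alike in how many of these receptors a cell showed. By coupling, a Gi/o-coupled receptor was found in 24 D1 MSN and 17 D2 MSN, a Gq-coupled receptor in 15 and 21, and a Gs-coupled receptor in 7 and 8.

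Cells in which more genes were found also held more of these receptors. Over the 78 MSN the Pearson correlation of both numbers was 0.52, with 0.64 on FACS051_5 and 0.38 on FACS086_4. This is a description over cells that share plates, and both numbers depend on the depth and quality of a cell's cDNA. MSN with 0 of the genes had a median of 3651 genes above 1 TPM, those with 1 had 5334 and those with at least 2 had 6143. For Htr1b, 0 of 7 D1 MSN and 2 of 12 D2 MSN with fewer than 4000 genes were above 1 TPM, but 13 of 18 and 9 of 12 of those with at least 6000 were. For Htr2c these counts were 2 of 7, 3 of 12, 9 of 18 and 7 of 12.

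**Figure D4:**
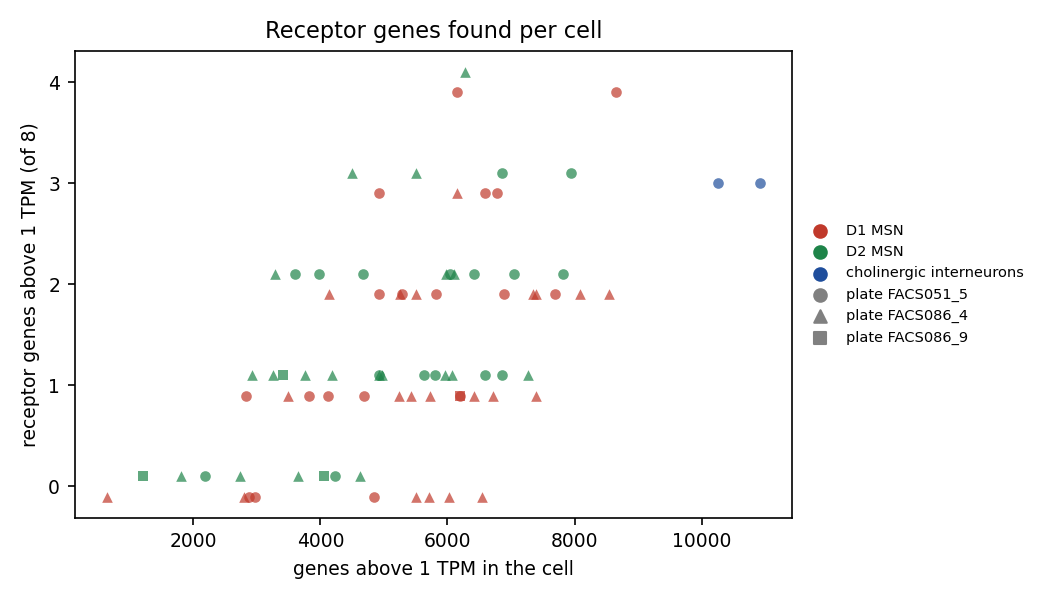
Number of the 8 receptor genes above 1 TPM in a cell against the number of all genes above 1 TPM in it, with 1 point a cell, the group as colour and the plate as shape (points of the groups are shifted slightly up or down). Cells with 0 receptor genes lie mostly at fewer genes, and the 2 cholinergic interneurons lie at 3 receptor genes and at 10251 and 10912 genes.

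Cells with a pair of these receptors were frequent for the commoner genes. Htr1b and Htr2c were both above 1 TPM in 18 MSN, which was 50.0% of the MSN with Htr1b and 52.9% of those with Htr2c. Htr1b was found in 13 of the 18 MSN with Adra2c (72.2%) and in 6 of the 12 with Adrb1. Htr2c was found in 9 of the 18 MSN with Adra2c and in 3 of the 12 with Adrb1. Adra2c and Adrb1, the adrenergic pair, were together in 2 MSN. On the scale of log2 of TPM plus 1, the Pearson correlation over the 78 MSN was 0.08 between Htr1b and Htr2c, 0.22 between Htr1b and Adra2c, 0.02 between Htr2c and Adra2c and -0.19 between Htr2c and Adrb1. The levels of these genes were thus at most weakly related, while cells with more genes found tended to hold several of them.

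**Figure D5:**
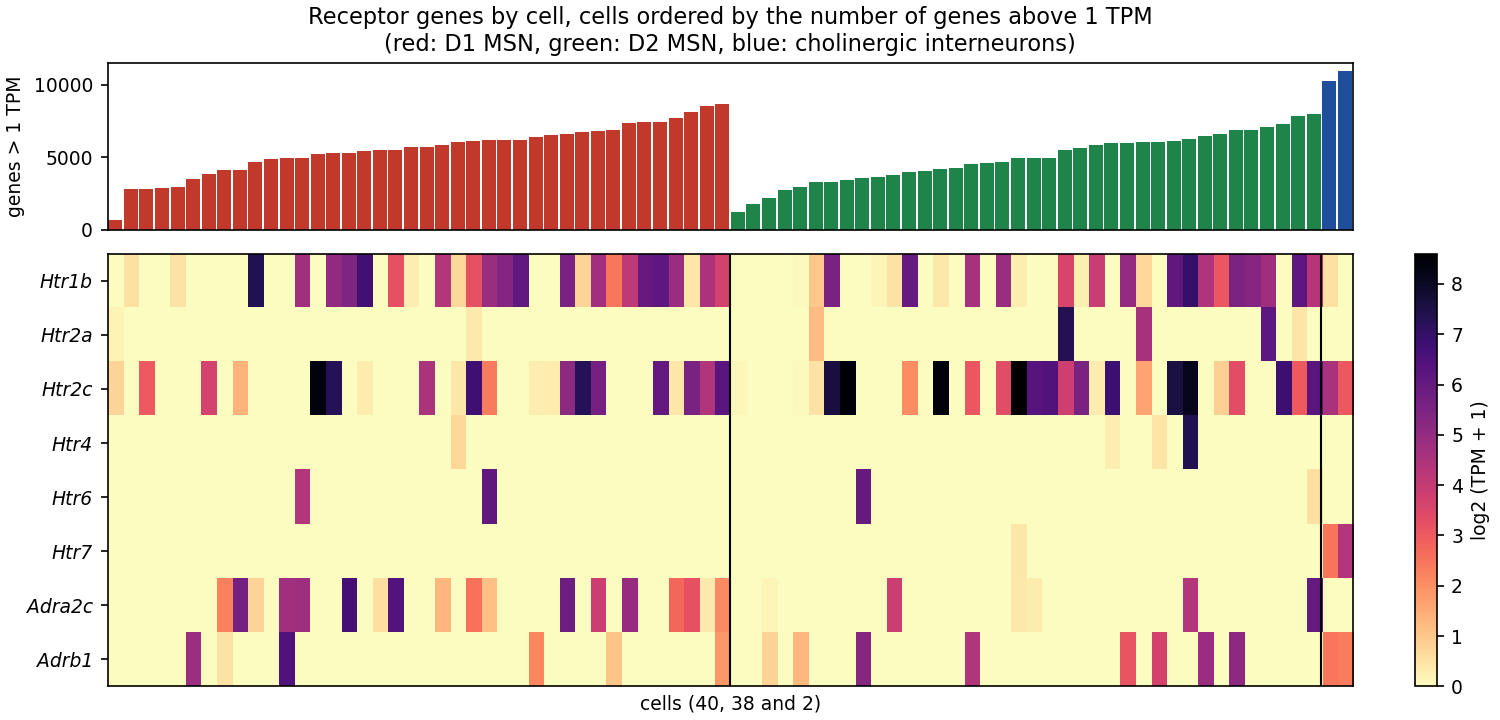
Log2 of TPM plus 1 of each receptor gene (rows) in each cell (columns), with cells ordered by their number of genes above 1 TPM (upper bars) within D1 MSN, D2 MSN and cholinergic interneurons. Htr1b and Htr2c fill in toward cells with more genes, Adra2c is found mainly in D1 MSN, and Htr4 is high in 1 D2 MSN.

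The genes most like each receptor in their pattern over the 78 MSN were sought among genes above 1 TPM in at least 8 of them, 13248 genes besides the receptor itself. For Htr1b they were Glcci1 (Pearson correlation of log2 of TPM plus 1 of 0.56), Insig2 (0.52) and Lingo1 (0.49), and those for Htr2c included Gm45159 (0.51) and Dnajb12 (0.49). Adra2c was most like Cramp1l (0.59), 9630010A21Rik (0.52) and Zdhhc14 (0.51), and Adrb1 most like Twf2 (0.52), Inha (0.50) and Gm13016 (0.47). These are among the highest of many correlations between sparse values and share the depth of the cells. The level of Htr1b itself correlated at 0.49 with the number of genes found in a cell, that of Htr2c at 0.25, Adra2c at 0.23 and Adrb1 at 0.01.

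Fluorescence in the sort, which the labels give without a unit, differed between plates in the red channel, where the D1 MSN had a median of 2146.5 on FACS051_5 and 3343 on FACS086_4, so values are given by plate. For Adra2c the red medians of D1 MSN with and without the gene were 2338.5 and 1781 on FACS051_5 and 3522 and 3290.5 on FACS086_4. For Htr2c they were 2402.5 and 1931, then 3724 and 3146.5, and for Htr1b 2358 and 1660, then 3290.5 and 3522, so that for Htr1b the order turned between plates. In the green channel of D2 MSN the medians were 924 and 715.5, then 873 and 745, for Htr2c, and 760.0 and 920.5, then 774.5 and 876, for Htr1b. These are medians over 5 to 16 cells, and the ranges of cells with and without each gene overlapped over all plates.

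Among the other serotonin receptor genes, 6 of 8 were listed. Htr1d, which encodes a Gi/o-coupled relative of Htr1b, was found in 6 D1 MSN and 5 D2 MSN, with means of 13.1 and 5.14 TPM and a highest value of 379 TPM in D1 MSN. Htr1f was found in 4 and 1 cells, with means of 6.42 and 0.562 TPM. Htr1d and Htr1f were the 2 of this list with a mean of at least 1 TPM, and both were past a log2 fold of 1 toward D1 MSN, at 1.20 and 2.25. Each rested on 1 D1 MSN, and without it the folds were -0.37 for Htr1d and -0.04 for Htr1f. Htr3b, a subunit of the ion channel receptor, was above 1 TPM in 4 and 7 cells at no more than 10.1 TPM, and Htr2b in 1 D2 MSN at 43.4 TPM. Htr1a and Htr5a were listed at 0 in all MSN.

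Of 6 other adrenergic receptor genes, 5 were listed, and 1, Adrb3, had a mean of at least 1 TPM. Adrb3 was found in 10 D1 MSN but in 6 D2 MSN, at means of 4.03 and 2.63 TPM and a log2 fold of 0.47. The fold was 1.88 on FACS051_5 and -0.79 on FACS086_4. Without 1 D1 MSN at 73.2 TPM it was -0.16, so its direction held neither over plates nor over cells. Adra1a was found in 6 and 5 cells, Adra2b in 2 and 8, and Adra1b in 0 and 0. The highest value of Adra2b was 2.87 TPM, so its greater share in D2 MSN was at low levels.

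Of 20 genes that make, carry or break down monoamines 11 were listed, and 7 had a mean of at least 1 TPM. Of these 7, 2 were past a log2 fold of 1 toward D1 MSN and 0 toward D2 MSN, with a median of -0.16. Over all genes with such a mean the shares were 21.1% and 14.8%. Aldh2, an aldehyde dehydrogenase, averaged 31.9 TPM in D1 MSN but 39.8 TPM in D2 MSN. The genes past the fold were Slc22a3, a low-affinity monoamine carrier with means of 4.10 and 0.813 TPM and a log2 fold of 1.49 that was 0.23 on FACS051_5 and 0.61 without 1 D1 MSN, and Pnmt, which was above 1 TPM in 1 cell. Maoa, a monoamine oxidase, averaged 2.15 and 2.62 TPM.

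Among 15 genes listed as receptor partners and regulators, 14 had a mean of at least 1 TPM. Of these 14, 4 were past a log2 fold of 1 toward D1 MSN and 1 toward D2 MSN, with a median of 0.39. The shares over all genes were 21.1% and 14.8%. Adrbk1, the kinase that phosphorylates active beta adrenoceptors, was found in 11 of 40 D1 MSN but 4 of 38 D2 MSN. Its means of 14.8 and 1.04 TPM gave a log2 fold of 2.95, with 3.08 on FACS051_5 and 2.61 on FACS086_4. S100a10, known to bind the serotonin 1B receptor, had a log2 fold of 3.02 but was found in 3 D1 MSN and 1 D2 MSN. Arrb2, a beta-arrestin, had 1.12, which was 0.43 on FACS086_4 and 0.52 without 1 D1 MSN. Jakmip1 had 1.06, with means of 133 and 62.9 TPM, and 0.98 at the lowest with a cell left out. On FACS051_5 it had 0.71 and on FACS086_4 1.18. Mpdz, a scaffold that binds the serotonin 2C receptor, had -1.51, with 5 cells above 1 TPM in each subtype, but -4.26 on FACS051_5 and 0.06 on FACS086_4, and between -3.30 and -0.42 with single cells left out. Gprasp1, at 115 and 85.1 TPM, and Magi2, at 26.8 and 29.5 TPM, were the other genes of this list with high means. Adarb1, an enzyme that edits RNA of Htr2c, was found in 19 D1 MSN and 12 D2 MSN, with a log2 fold of 0.82.

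Among 20 G protein and effector genes 18 were listed and 17 had a mean of at least 1 TPM. Of these 17, 2 were past a log2 fold of 1 toward D1 MSN and 3 toward D2 MSN, beside 21.1% and 14.8% over all genes. Their median was -0.15. Gnal, which encodes the stimulatory subunit that prevails in striatum, was found in 38 D1 MSN and 37 D2 MSN at means of 129.7 and 144 TPM. Gnao1 averaged 159 and 224 TPM, and Prkacb, a catalytic subunit of protein kinase A, 148 and 138 TPM. Toward D2 MSN were Gnas, at 12.7 and 98.6 TPM with a log2 fold of -2.86, Plcb4 with -2.50 and Gnai3 with -1.41. Toward D1 MSN were Kcnj3 with 1.47 and Gnai1 with 1.11. Without 1 cell each, Gnai3 came to -0.79, Kcnj3 to 0.94 and Gnai1 to 0.76, whereas Gnas and Plcb4 stayed at or below -1.70. The G proteins through which Gs-, Gi/o- and Gq-coupled receptors act included some found in nearly every MSN, with Gnaz above 1 TPM in all 78 and Gna11 in 36 D1 MSN and 31 D2 MSN. Of 7 early response genes, which report recent activity or handling, 0 were past a log2 fold of 1, with a median of 0.13.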

How the data were processed

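Single cells were sorted into wells, cDNA was made with a SMARTer kit, and libraries were sequenced. The authors deposited TPM for each gene and cell. Per the methods and the submitters' processing notes, reads were aligned with STAR 2.5.0 to mm10/GRCm38 and counted with featureCounts 1.5.1. How TPM were derived from counts, and whether strand was used, is not given in the sources used here. Depth per cell is unknown from TPM, and the listed genes summed to between 506588 and 958040 TPM per cell. All 80 cells were kept, including a few that the study did not count as usable and that the sources used here do not name.

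Means, medians and shares of cells above 1 TPM were computed per group and plate, with exact 95% intervals. The log2 fold was that of mean TPM plus a pseudocount of 1. Counts past a log2 fold of 1 were taken over genes averaging 1 TPM or more in MSN, a gene at 0 in 1 group included. No p-value was computed, since the labels tie no cell to an animal and each group was taken as 1 sample. The receptor genes and lists were chosen with earlier results of these data known. Named were all listed receptors; per receptor the 3 genes of highest correlation; the listed genes of both other receptor lists; and of the other lists the 3 genes with the highest mean and those past the fold that were above 1 TPM in at least 10% of a subtype's cells. Marker and early response lists are given by sums and counts. Some genes that this rule names are not reported here. Pnmt, S100a10, Maoa, Adarb1, Gnaz, Gna11, Pecam1 and D430036J16Rik were named after their values were seen. Gene positions came from GENCODE M21 (GRCm38). Alternatives changed the pseudocount, the mean, the filter, the detection limit, the scaling and the cells. Leaving out single cells, well D04 or wells D04, B02 and A12, and grouping cells by genes found, were chosen after seeing the data. Tables were handled with pandas 2.3.3 and numpy 2.4.6 in Python 3.11.15, intervals came from scipy 1.17.1, and figures were drawn in matplotlib 3.10.9.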

Additional observations from a re-analysis of the deposited data

Results flagged for a closer look

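The cholinergic interneurons were left out of the comparison of MSN, and Htr7 was above its level in every MSN in both of them. Of this pair, both from FACS051_5, the interneuron of well A08 held 19.6 TPM and that of B02 held 4.52 TPM, while the highest MSN was at 0.341 TPM. The interneurons also held more genes above 1 TPM than any MSN, and the part of that in the level of Htr7 was not tested.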

How the results depend on the processing

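The count of receptor genes past a log2 fold of 1 depended on how low values were weighted. With a pseudocount of 10 TPM it was 0 toward D1 MSN and 0 toward D2 MSN, and 727 and 520 of all genes were past the fold in place of 3301 and 2314. With the difference of mean log2 values it was 0 toward D2 MSN, and 695 and 246 of all genes were past it. With a mean of at least 10 TPM asked for, only Htr1b and Htr2c were counted, with 0 toward D1 MSN and 1 toward D2 MSN, and 949 and 732 of all genes. The number of receptor genes per cell was 1.90 in D1 MSN and 1.92 in D2 MSN when values above 0 TPM counted, and 1.08 in D2 MSN when values above 10 TPM did. Of 95 log2 folds of receptor genes under alternatives, 30 moved by more than the standard deviation of that gene's folds on the large plates. For Htr2a, Htr4 and Htr6 this deviation took in a plate with the gene at 0 in at least 1 subtype. It was 2.29 for Htr4 and 0.0159 for Adrb1, so the count of 30 does not compare the genes in stability. Among the folds past 1, 0 reversed. The folds of Htr6 and Adrb1, which were smaller, turned direction with single cells left out, to -0.82 and 0.05. The fold of Adra2c was 0.70 with a pseudocount of 10 TPM and 1.10 with mean log2 values, that of Htr2a -0.74 and -0.50, and that of Htr4 -0.52 and -0.20. The fold of Htr2c was -2.19 without plate FACS086_4, but -0.95 without FACS051_5 and -0.98 without FACS086_9. With the large plates weighted equally it was -0.999, with a pseudocount of 10 TPM -0.93 and with mean log2 values -0.87.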

Other observations

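Some other genes of monoamine signalling were also higher in both cholinergic interneurons than in any MSN. Both interneurons also had more genes above 1 TPM, at 10912 and 10251, than any MSN. The part of that in these levels was not tested, and no count of such genes over all genes is given. Maob, a monoamine oxidase, was at 247 TPM in A08 and 282 TPM in B02, named by their wells, with a highest value of 28.3 TPM in an MSN. Maoa, which breaks down serotonin and noradrenaline, was at 72.0 and 53.2 TPM, with a highest value of 36.2 TPM in an MSN. Htr1a was at 4.18 and 1.75 TPM and Htr5a at 1.42 and 1.26 TPM, and both were listed at 0 in all 78 MSN. Adra1b was at 2.92 and 0.324 TPM, against at most 0.257 TPM in an MSN, so that B02 differed from the MSN only at values below 1 TPM. With 2 interneurons, from 1 plate, these are pairs of values, and no spread between animals is known.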
